A study of Mus musculus with 4 samples.

Results

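Eicosanoid genes were followed in alveolar macrophages, which live in the airspaces of the lung and clear surfactant and inhaled particles. The genes are 32 that encode phospholipases A2, enzymes of the cyclooxygenase and lipoxygenase pathways, terminal synthases, receptors and enzymes of breakdown. They were chosen by name, with earlier results of these data known. A gene was measured by the probe set annotated with its symbol alone, and by the brightest such probe set where there were several. Of the 32, 30 were measured among the 18782 genes tested, and Ptgs1 and Ptger1 were not analysed here.

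The KO cells came from adult mice with floxed Pparg alleles and a Cre recombinase under the CD11c promoter, which is active in alveolar macrophages and dendritic cells. The WT cells came from adult mice with the floxed alleles and no Cre, so the presence of Cre also separates the groups. Both were on a C57BL/6 background, and each group had 2 arrays, each of pooled cells from 2 mice. The cells were sorted as viable, CD45-positive, CD11c-high, autofluorescent and Siglec-F-positive. KO cells were taken from the CD11b-high gate and WT cells from the CD11b-low gate. The labels call the KO cells immature precursors and the WT cells mature. Genotype, gate and stage therefore cannot be told apart in any difference below. Pparg encodes PPARγ, a nuclear receptor that binds fatty acids, and the title of the series asks what it controls in the identity of these cells.

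Eicosanoids are signalling lipids made mainly from arachidonic acid, which phospholipases A2 free from membranes. Cyclooxygenases turn it into a precursor from which terminal synthases make prostaglandins, prostacyclin and thromboxane. Lipoxygenases start the path to leukotrienes, and both kinds of product act on receptors of the G protein-coupled family. In the lung, alveolar macrophages are known as a source of leukotriene B4, thromboxane and prostaglandins, and some oxidised fatty acids bind PPARγ in vitro.

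Values are log2 expression after RMA, and every array had a median of 3.14. Arrays of 1 genotype correlated more closely across probe sets (KO 0.996, WT 0.995) than arrays of different genotype (0.974 to 0.980). The targeted gene, Pparg, did not differ past the test (-0.06 ± 0.10, SE; limma adjusted p = 0.79), and whether its probes fall within the floxed exons is not known, so its level is no check of the genotype. Among genes of the sort, Itgam (CD11b) differed by 5.76, in the direction in which the CD11b gates had selected the cells. Siglecf differed by -3.27. Both were past the test, while Itgax (0.24) and Adgre1 (0.07) were not. Ptprc differed by -0.52 (adjusted p = 0.0212). Leaving out KO replicate 1 gave -0.47 (adjusted p = 0.117), leaving out KO replicate 2 gave -0.56 (0.0769), and leaving out WT replicate 1 gave -0.46 (0.0982). Of 10 alveolar macrophage markers measured, 0 were higher and 4 lower in KO, against 7.41% higher and 6.86% lower of all genes tested. Chil3, Plet1 and Atp6v0d2 lay between 10.8 and 11.2 on all arrays, while Fabp1, Krt79 and Cidec differed by -5.96, -6.19 and -5.67. Marco (-2.62), Fabp4 (-2.07) and Car4 (-0.32) were not past the test. By an unadjusted p under 0.05 in limma, 7 of the 10 were lower and 0 higher. Of the 18782 genes tested, 2631 were lower and 2375 higher by that threshold. The WT arrays were far apart for Marco (7.22 and 4.43) and Fabp4 (7.57 and 5.21). The summed level of the 10 was 66.0 to 67.3 in KO and 89.0 to 96.5 in WT. Summed levels here and below are sums of log2 values, in which dim genes weigh as much as bright ones.

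Of the 30 genes measured, 8 rose in KO, 4 fell and 18 did not pass the test (limma, adjusted p under 0.05 over all genes). Those are 26.7% higher and 13.3% lower, against 7.41% higher and 6.86% lower of all genes tested, or 14.3% in either direction. Because the list was made with earlier results of these data known, the contrast is no test of it. Of the 8, 6 rose by at least 1 on the log2 scale (3.11% of all genes did), and of the 4, 1 fell by at least 1 (2.11%). With either KO array left out fewer of these genes passed, and fewer of all genes tested did too, as the closing section gives. The higher genes were the phospholipases Pla2g2d and Pla2g7, the inducible cyclooxygenase Ptgs2, the prostaglandin D synthase Hpgds, the receptors Ptgir and Cysltr1 and the breakdown enzymes Hpgd and Ptgr1. The lower genes were the leukotriene enzymes Ltc4s, Alox5 and Lta4h and the prostaglandin E receptor Ptger2. The median difference over the 30 genes was -0.07 on the log2 scale, against -0.015 over all genes. KO and WT arrays did not overlap for 24 of the 30 (80.0%), against 55.3% of all genes.

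**Figure D1:**
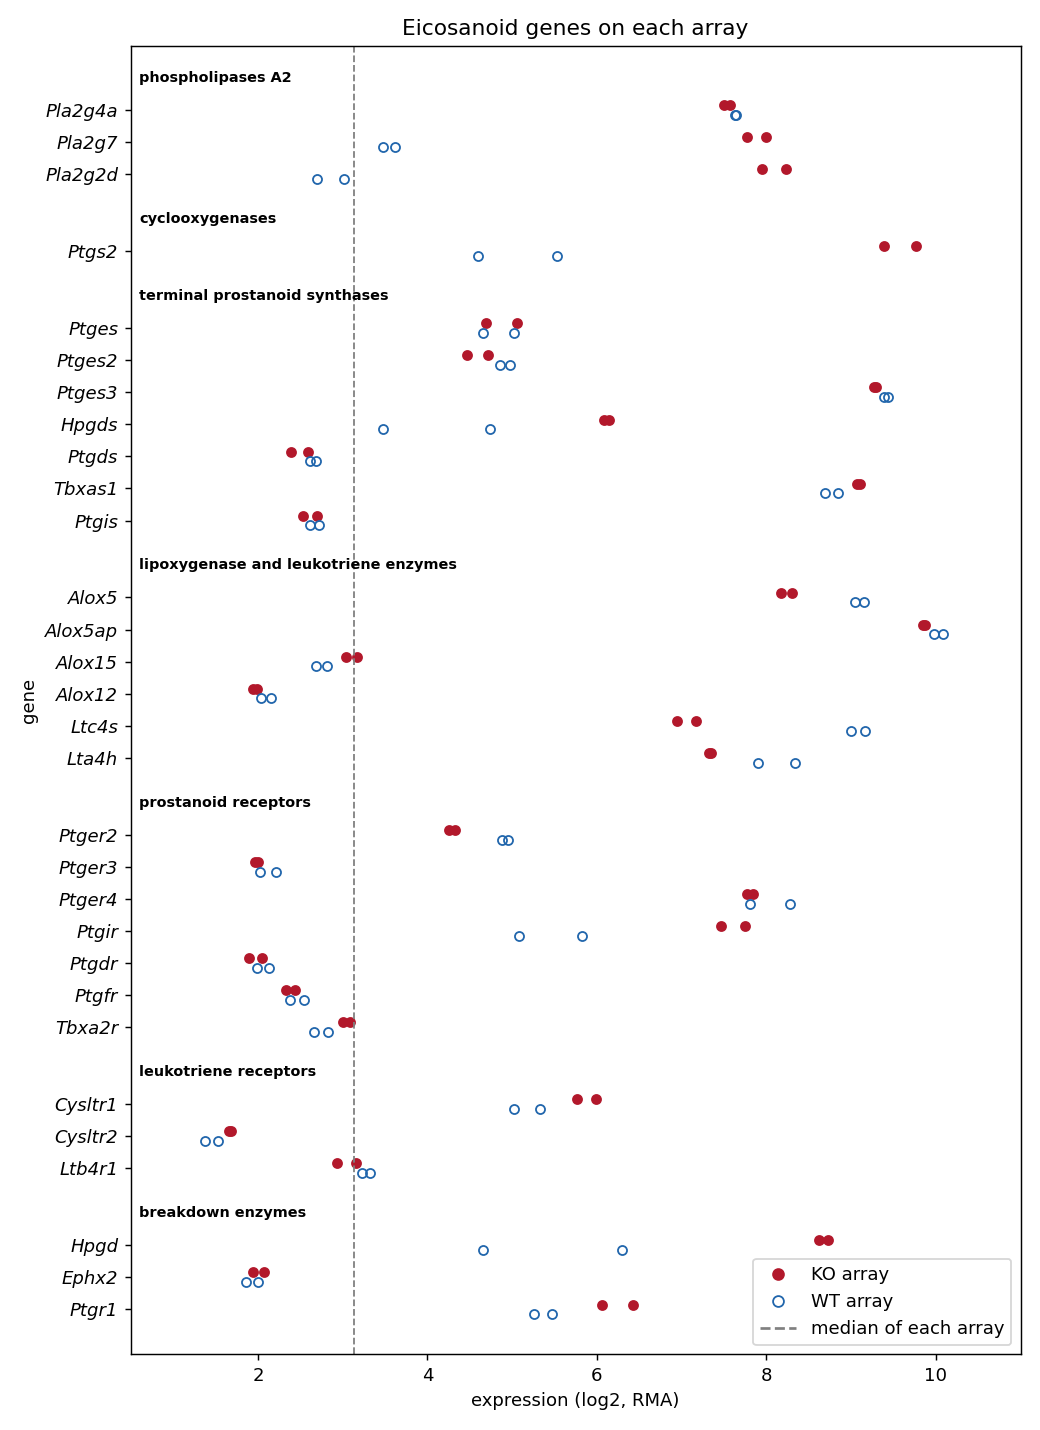
Expression of the 30 measured genes on each array, grouped by branch, on the log2 RMA scale. Filled points are KO arrays, open points are WT arrays, and the dashed line is the array median of 3.14. Pla2g2d, Pla2g7 and Ptgs2 stand furthest to the right in KO relative to WT, and Ltc4s furthest to the left.

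The 250 bases before the annotated start are shown for the 2 genes with the largest rise and the 2 with the largest fall, 5′ to 3′ along each gene. They come from RefSeq on build GRCm38.p6. They are Pla2g2d (chr4:138775485-138775734, plus strand), Ptgs2 (chr1:150099781-150100030, plus strand), Ltc4s (chr11:50238533-50238782, minus strand) and Alox5 (chr6:116461179-116461428, minus strand). Capitals mark matches to 1 of 6 short motifs searched on both strands, which the next paragraph names.
Pla2g2d: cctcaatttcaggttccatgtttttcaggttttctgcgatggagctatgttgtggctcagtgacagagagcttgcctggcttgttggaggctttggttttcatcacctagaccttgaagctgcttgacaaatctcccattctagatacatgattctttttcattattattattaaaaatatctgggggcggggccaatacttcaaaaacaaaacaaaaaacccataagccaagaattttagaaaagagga
Ptgs2: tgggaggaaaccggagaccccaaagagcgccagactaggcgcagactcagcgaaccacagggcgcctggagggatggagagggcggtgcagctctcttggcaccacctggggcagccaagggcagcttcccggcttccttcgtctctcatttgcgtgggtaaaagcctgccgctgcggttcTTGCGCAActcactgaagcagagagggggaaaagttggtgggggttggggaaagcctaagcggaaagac
Ltc4s: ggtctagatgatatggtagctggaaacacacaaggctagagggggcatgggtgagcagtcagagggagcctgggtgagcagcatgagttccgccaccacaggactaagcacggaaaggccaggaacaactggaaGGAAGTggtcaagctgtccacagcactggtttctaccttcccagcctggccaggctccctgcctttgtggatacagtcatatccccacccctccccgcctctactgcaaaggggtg
Alox5: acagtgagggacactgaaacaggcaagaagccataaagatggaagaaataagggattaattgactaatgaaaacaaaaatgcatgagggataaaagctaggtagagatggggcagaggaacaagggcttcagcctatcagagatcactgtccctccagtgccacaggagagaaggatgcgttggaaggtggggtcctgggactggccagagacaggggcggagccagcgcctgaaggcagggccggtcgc

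Of the 32 genes, 26 had a start in the RefSeq table, and 25 of these were measured. Each window searched ran from 250 bases before to 50 after the start, and where a gene had several starts the first listed was used. The C/EBP letters TTGCNNAA were in 10.8% of all 32851 windows and the cyclic AMP response element core TGACGT in 7.5%. The C/EBP letters were in the windows of Ptgs2, Hpgds and Ptgr1, which is 3 of 7 higher genes. They were also in 1 of 4 lower genes (Ptger2) and in 1 of 14 genes not past the test. These letters were picked after the Ptgs2 sequence was seen, so the match in Ptgs2 was known in advance. In Ptgs2 they start 69 bases before the annotated start, and the cyclic AMP core lies 12 bases past it, beyond the bases printed. The ETS letters GGAAGT, a core that PU.1 binds, were in 1 of 7 higher genes (Hpgds), 1 of 4 lower genes (Ltc4s, 116 bases before the start) and 1 of 14 genes not past the test (Ltb4r1), against 23.8% of all windows. They were also in the window of Ptgs1. The nuclear receptor core AGGTCA was in 16.3% of all windows and in 0 of 7 higher genes, 0 of 4 lower genes and 3 of 14 genes not past the test. The AP-1 letters TGANTCA (7.8% of all windows) and the TATA letters TATAAA (13.6%) matched neither Ptgs2 nor the other 3 sequences printed. The AP-1 letters were in 0 of 7 higher genes, 0 of 4 lower genes and 2 of 14 not past the test (Ptgds and Tbxas1). For the TATA letters it was 1 of 7 (Hpgd), 0 of 4 and 1 of 14 (Tbxas1), and for the cyclic AMP core 1 of 7 (Ptgs2), 0 of 4 and 0 of 14. These matches describe letters only.

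Of the 3 phospholipase A2 genes, Pla2g2d and Pla2g7 rose and Pla2g4a did not pass the test, where 7.41% of all genes rose. Pla2g2d, which encodes a secreted phospholipase A2 known from lymphoid tissue and antigen-presenting cells, read 7.95 and 8.23 on the KO arrays, against 2.70 and 3.01 on the WT arrays. Both WT arrays lay below the array median, a range where RMA values are compressed, and the KO arrays lay far above it. The difference was 5.23 ± 0.15 (SE; limma adjusted p = 2.01e-05), or 37.6-fold. Pla2g7, which encodes the platelet-activating factor acetylhydrolase, a plasma enzyme that macrophages secrete, read 7.77 and 7.99 in KO and 3.47 and 3.62 in WT. It rose by 4.34 ± 0.12 (SE; adjusted p = 1.73e-05), or 20.2-fold, and no array of one group came within 4.15 of the other.

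Pla2g4a encodes the cytosolic phospholipase A2 that supplies arachidonic acid for eicosanoid synthesis after a rise in calcium. It read 7.57 and 7.50 in KO and 7.63 and 7.64 in WT, a difference of -0.10 with a 95% interval of -0.34 to 0.13 (adjusted p = 0.576). On the mouse genome Pla2g4a and Ptgs2 are neighbours with 0 annotated protein-coding genes between them. Pla2g2d likewise lies between Pla2g2f (0.05) and Pla2g5 (0.23), 2 secreted phospholipases of the same cluster whose differences were not past the test (adjusted p = 0.859 and 0.401). These neighbours were picked after the values were known.

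Ptgs2, which encodes the inducible cyclooxygenase COX-2, read 9.77 and 9.39 on the KO arrays and 4.60 and 5.52 on the WT arrays. The WT arrays were 0.92 apart, more than the KO arrays, and the groups were separated by 3.87. It rose by 4.52 ± 0.30 (SE; adjusted p = 3.90e-04), or 22.9-fold with an interval of 3.79 to 5.24 on the log2 scale. With each array left out in turn the difference ran from 4.06 to 4.98.

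Of the 7 terminal synthases, which turn the cyclooxygenase product into specific prostanoids, 1 rose and the other 6 were not past the test. Over all genes tested, 7.41% rose. Hpgds, the haematopoietic prostaglandin D synthase, read 6.08 and 6.14 in KO and 4.74 and 3.48 in WT. The WT arrays were far apart (SD 0.89), and WT replicate 1 was the nearer to KO. The difference was 2.00 ± 0.37 (SE; adjusted p = 0.0173), or 4.01-fold. It missed the threshold with KO replicate 1 left out (2.03, adjusted p = 0.10) and with KO replicate 2 left out (1.97, adjusted p = 0.106). Leaving out WT replicate 2 gave 1.37, and leaving out WT replicate 1 gave 2.63.

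The prostaglandin E synthases were close between the groups. Ptges, the inducible microsomal enzyme that is often coupled to COX-2, read 5.06 and 4.70 in KO and 5.02 and 4.66 in WT, so that the arrays of the groups interleaved. Its difference was 0.04 with an interval of -0.39 to 0.46 (adjusted p = 0.928). Ptges2 differed by -0.33 (interval -0.62 to -0.03; adjusted p = 0.15) and Ptges3, the cytosolic enzyme that is also a co-chaperone of HSP90, by -0.12 (-0.35 to 0.11). The 3 probe sets of Ptges3 gave -0.12, -0.14 and -0.01.

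Tbxas1, which encodes thromboxane synthase, read 9.07 and 9.11 in KO and 8.85 and 8.69 in WT. Both KO arrays lay above both WT arrays, but the difference of 0.32 ± 0.10 was not past the test (adjusted p = 0.107). It passed in a fit with an intensity trend in the variance (adjusted p = 0.0184). Ptgds, the lipocalin-type prostaglandin D synthase (-0.16), and Ptgis, prostacyclin synthase (-0.06), read below the array median on every array, a range where RMA values are compressed.

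**Figure D2:**
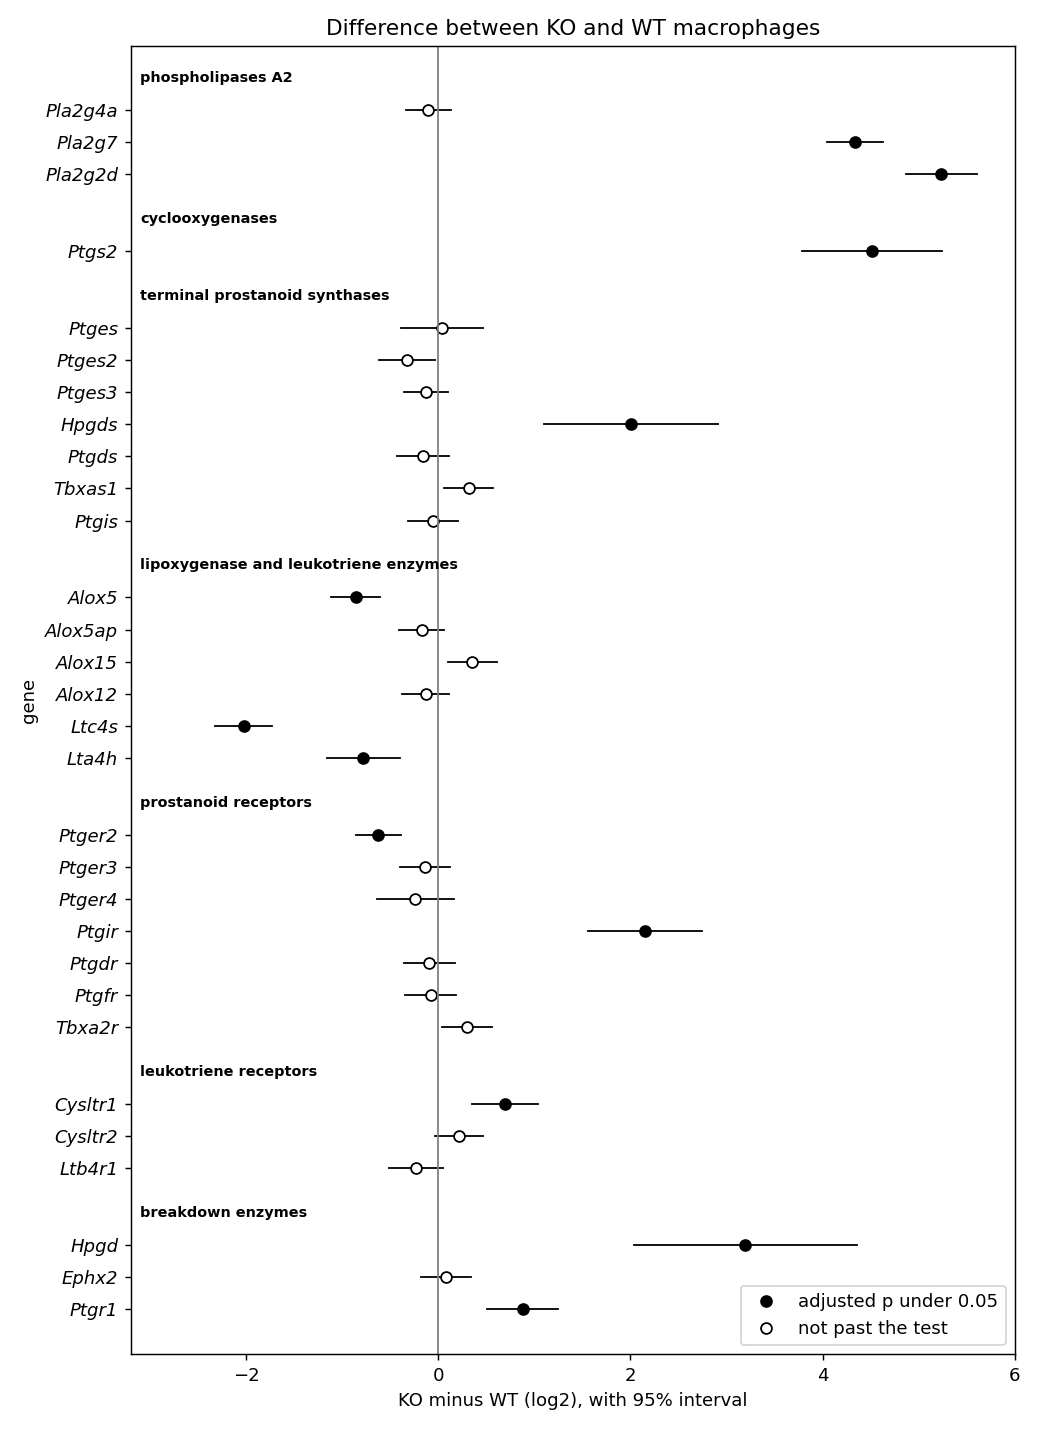
KO minus WT difference of each gene on the log2 scale, with the 95% interval of the limma fit as a horizontal line. Filled points had an adjusted p under 0.05 and open points did not. The 3 lower leukotriene enzymes lie between -2.03 and -0.78, and the higher genes between 0.70 and 5.23.

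Of the 6 lipoxygenase and leukotriene enzymes among the 32 genes, 3 were lower in KO, against 6.86% of all genes tested. Both KO arrays lay below both WT arrays in 5, where the arrays of 55.3% of all genes did not overlap in either direction. Of these 5, Alox12 read below the array median on all arrays. By an unadjusted p under 0.05, 1 of the 6 (Alox15) was higher, and none passed upwards after adjustment. Outside the 6, the leukotriene receptor Cysltr1 rose. A further 14 enzymes of this kind gave 4 lower and 2 higher, where 7.41% of all genes were higher. Alox5 encodes the lipoxygenase that begins leukotriene synthesis, and read 8.18 and 8.30 in KO and 9.15 and 9.05 in WT. The arrays of each group lay close together, 0.75 from the other group. It fell by 0.86 ± 0.10 (KO minus WT -0.86; adjusted p = 0.00335), which is 1.82-fold lower in KO.

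Ltc4s had the largest fall of the 30 genes. It encodes leukotriene C4 synthase, which joins glutathione to leukotriene A4 and so opens the cysteinyl leukotriene branch. It read 6.95 and 7.17 in KO and 9.17 and 9.0 in WT, and the groups were 1.83 apart. The difference was -2.03 ± 0.12 (SE; adjusted p = 2.86e-04), or 4.07-fold lower in KO, and lay between -2.14 and -1.91 with each array left out.

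Lta4h encodes the hydrolase that makes leukotriene B4 from the same precursor. It read 7.32 and 7.34 in KO and 8.33 and 7.90 in WT. The fall of 0.78 ± 0.16 (KO minus WT -0.78; adjusted p = 0.022) was -0.77 (adjusted p = 0.118) without KO replicate 1 and -0.79 (adjusted p = 0.111) without KO replicate 2. Alox5ap, the membrane protein that presents arachidonic acid to the lipoxygenase, read 9.87 and 9.85 in KO and 10.1 and 9.98 in WT. Its difference of -0.17 was not past the test (adjusted p = 0.333; interval -0.41 to 0.06).

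The other lipoxygenases among the 32 genes, Alox12 and Alox15, were dim. Alox12 read about 2.0 on all arrays and differed by -0.13. Alox15, which in mouse makes both hydroxylated and specialised lipid mediators and is known from resident peritoneal macrophages, read 3.17 and 3.05 in KO and 2.81 and 2.69 in WT. Its difference of 0.35 was not past the test (adjusted p = 0.082), and all 4 values lay near or below the array median.

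Of 7 prostanoid receptors measured, 1 rose and 1 fell, where 7.41% of all genes rose and 6.86% fell. Ptgir, the prostacyclin receptor, which signals through cyclic AMP, read 7.75 and 7.47 in KO and 5.09 and 5.82 in WT. The difference was 2.15 ± 0.24 (SE; adjusted p = 0.00262), or 4.44-fold, and every KO array was above every WT array by at least 1.64. Ptger2, a receptor for prostaglandin E2 that also raises cyclic AMP, read 4.33 and 4.26 in KO and 4.95 and 4.88 in WT. It fell by 0.62 ± 0.10 (KO minus WT -0.62; adjusted p = 0.00891), and its adjusted p was 0.0627 without KO replicate 2, with a difference of -0.59.

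Ptger4, the other cyclic AMP-coupled prostaglandin E receptor measured, read 7.84 and 7.77 in KO and 8.28 and 7.81 in WT. The groups overlapped, and the difference was -0.24 (interval -0.64 to 0.16; adjusted p = 0.438). Ptger3 (-0.13), Ptgdr (-0.09), Ptgfr (-0.08) and Tbxa2r (0.30) read below the array median on all arrays. Tbxa2r, the thromboxane receptor, had both KO arrays (3.01 and 3.08) above both WT arrays (2.67 and 2.83), with an adjusted p of 0.135.

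For leukotriene receptors, Cysltr1, which binds cysteinyl leukotrienes, read 5.99 and 5.77 in KO and 5.03 and 5.33 in WT. Both KO arrays lay above both WT arrays, and the rise was 0.70 ± 0.14 (adjusted p = 0.023). It passed with WT replicate 2 left out, but not with KO replicate 1 (0.59, adjusted p = 0.132), KO replicate 2 (0.81, 0.0638) or WT replicate 1 (0.55, 0.085) left out. Cysltr2 read below 1.7 on every array and differed by 0.22. Ltb4r1, the high-affinity receptor for leukotriene B4, read 2.94 and 3.15 in KO and 3.33 and 3.23 in WT, a difference of -0.23 (adjusted p = 0.276).

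Of the 3 breakdown enzymes, Hpgd and Ptgr1 rose and Ephx2 did not pass the test, where 7.41% of all genes rose. Hpgd, the dehydrogenase that takes the first step of prostaglandin breakdown, read 8.62 and 8.73 in KO and 4.66 and 6.30 in WT. The WT arrays were 1.64 apart (SD 1.16), the widest spread of the 30 genes, yet both lay at least 2.32 below the KO arrays. The difference was 3.20 ± 0.48 (SE; adjusted p = 0.00773), or 9.17-fold. It was 2.38 without WT replicate 1 and 4.02 without WT replicate 2. It missed the threshold with either KO array left out, at 3.25 (adjusted p = 0.0605) without KO replicate 1 and 3.14 (0.0638) without KO replicate 2.

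Ptgr1, a reductase that acts on the oxidised prostaglandins and also on leukotriene B4, read 6.42 and 6.06 in KO and 5.25 and 5.47 in WT. It rose by 0.88 ± 0.15 (adjusted p = 0.0138), by 0.70 (adjusted p = 0.068) without KO replicate 1 and by 0.77 (adjusted p = 0.0558) without WT replicate 1. Ephx2, the soluble epoxide hydrolase, read below 2.1 on all arrays and differed by 0.08.

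**Figure D3:**
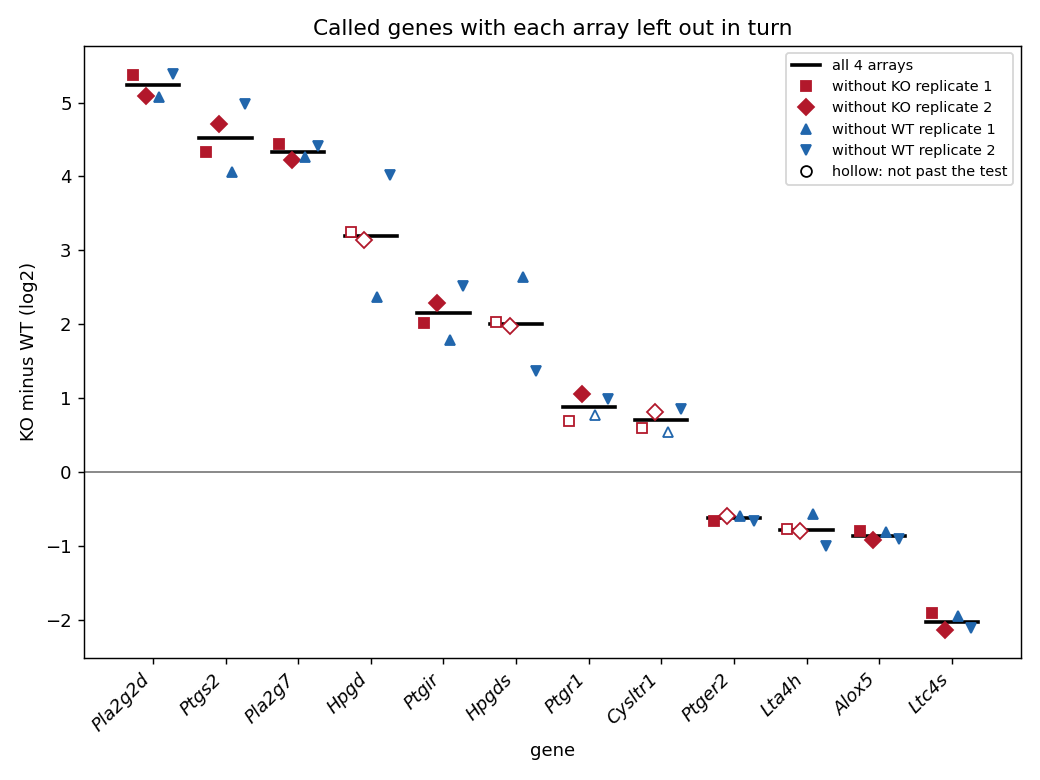
KO minus WT difference on the log2 scale of the 12 genes past the test, with all 4 arrays (line) and with each array left out in turn (symbols). Hollow symbols were not past the test. Pla2g2d, Ptgs2, Pla2g7, Ptgir, Alox5 and Ltc4s stayed past it whichever array was left out, and the other 6 did not.

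The WT arrays were not equally far from KO. Of the 8 higher genes, 7 read nearer to KO in WT replicate 2 than in WT replicate 1, Hpgds being the exception, and the same held for all 4 lower genes. Over all genes the share was 71.1% of those higher and 66.9% of those lower in KO. Across the probe sets WT replicate 2 correlated with the KO arrays at 0.979 and 0.980, and WT replicate 1 at 0.974 and 0.975. An SD over 0.5 was found in WT for 4 of the 12 genes past the test (Ptgs2, Hpgds, Ptgir and Hpgd) and in KO for 0 of them. The share over all genes was not computed, so these counts only describe the 12.

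Several of these genes are also typical of other cells. In bulk samples fewer cells of a type and less RNA per cell cannot be told apart. The marker counts here and in the next paragraph stand against 7.41% higher and 6.86% lower of all genes tested. Of 10 mast cell and basophil markers, cells that make leukotriene C4 and prostaglandin D2, 9 read below the array median on all arrays, and the summed level was 21.4 to 22.3 in KO and 21.4 to 21.6 in WT. Limma called 0 of the 10, with 0 at an unadjusted p under 0.05, and called 1 higher without KO replicate 2. Of 6 eosinophil markers, Prg2, Epx, Ccr3 and Il5ra read below the median on all arrays, while Rnase2a was higher in KO by 5.19. Ear6, the other one, read 5.32 and 2.93 in KO and 4.79 and 5.28 in WT (adjusted p = 0.492), and leaving out KO replicate 1 gave 1 eosinophil marker lower in KO. The summed level was 18.6 to 21.9 in KO and 15.8 to 15.9 in WT, and with all 4 arrays Rnase2a was the only eosinophil marker past the test.

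Among 7 platelet and megakaryocyte markers, cells rich in thromboxane synthase and Alox12, Pf4 differed by 0.82 and Clec1b by -1.52. With KO replicate 1 left out neither passed (adjusted p = 0.108 and 0.0677), and Pf4 also failed with WT replicate 1 (0.0634) or WT replicate 2 (0.111) left out. Their summed level was 23.7 to 23.8 in KO and 24.3 to 24.7 in WT. Of 9 endothelial markers, 6 read below the median on all arrays and Vwf was higher in KO by 1.16. Neutrophil markers gave 1 higher (S100a8, 1.92) and 1 lower (Csf3r, -1.54) of 10, with 2 higher when KO replicate 2 or WT replicate 1 was left out, and their summed level was 32.8 to 34.5 in KO and 31.0 to 31.1 in WT. Of 12 interstitial macrophage markers 7 were higher and 2 lower in KO (6 higher and 0 to 1 lower with any array left out), and the summed level was 79.7 to 80.1 in KO and 56.9 to 57.4 in WT. Of 7 monocyte markers 4 were higher and 1 lower (2 higher without KO replicate 1, 1 without KO replicate 2), with a summed level of 45.6 to 45.9 in KO and 42.8 to 43.6 in WT. Dendritic cell markers gave 1 higher (Cd209a, 2.04) and 1 lower (Batf3, -0.92) of 9. Batf3 did not pass with KO replicate 1 (adjusted p = 0.128), KO replicate 2 (0.0596) or WT replicate 1 (0.0584) left out, and 2 of the list were higher with WT replicate 2 left out. Lung epithelial markers gave 1 higher (Hopx, 2.66) and 1 lower (Ager, -1.32) of 10, with 2 higher when WT replicate 1 and 2 lower when WT replicate 2 was left out. B and T lymphocyte markers gave 1 higher (Cd4, 0.42) of 8, and 0 with any array left out. Of 9 fibroblast and smooth muscle markers 0 passed in limma (1 higher at an unadjusted p under 0.05). The part of these cells in the differences above was not tested.

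Beyond the 32 genes, 82 other genes of the same pathways were listed, of which 71 were measured. Of these 13 rose, 9 fell and 49 did not pass, where 7.41% of all genes rose and 6.86% fell. Fewer of the 71 passed with any 1 array left out, and fewer of all genes tested did too, as the closing section gives. The median difference of the 71 was 0.05. The largest rises were in genes of platelet-activating factor and related mediators and in Ephx1. Ptafr, the receptor for platelet-activating factor, read 8.34 and 8.34 in KO and 4.80 and 5.38 in WT, a rise of 3.25 ± 0.19 (adjusted p = 2.52e-04). Lpcat2, which encodes the acetyltransferase that makes this lipid in macrophages, rose by 1.95 ± 0.10 (adjusted p = 1.78e-04) with 7.57 and 7.41 in KO and 5.52 and 5.56 in WT. With Pla2g7, which breaks it down, 3 genes of this lipid were higher in KO, a grouping made after the values were seen.

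Ephx1, the microsomal epoxide hydrolase, read 8.63 and 8.48 in KO and 4.57 and 5.44 in WT, a rise of 3.55 ± 0.27 (adjusted p = 6.35e-04). Cmklr1, a receptor for the protein chemerin that has also been proposed as a receptor for a resolvin, rose by 3.24 ± 0.22 (adjusted p = 3.94e-04). Lpcat1, a lysophosphatidylcholine acyltransferase, rose by 2.21 ± 0.21, and the membrane dipeptidase gene Dpep3 by 1.18 ± 0.12. These 6 genes passed the test whichever array was left out.

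The 6 lower genes with the smallest p were smaller in size. Aloxe3, a lipoxygenase-like isomerase known from skin (-1.05 ± 0.13), Abhd12, a lysophospholipid lipase (-1.01 ± 0.13), and Lpcat3, which puts arachidonic acid and other polyunsaturated fatty acids into phospholipids (-0.68 ± 0.10), passed whichever array was left out. Pla2g6, the calcium-independent phospholipase A2, differed by -0.92 ± 0.14 and by -0.85 (adjusted p = 0.0649) without KO replicate 1. Cyp4f18, which oxidises leukotriene B4 in mouse neutrophils, differed by -0.65 ± 0.10 and by -0.58 (adjusted p = 0.062) without KO replicate 2. Mgst3, a relative of Ltc4s that can conjugate glutathione, differed by -0.71 ± 0.12, and leaving out KO replicate 1 or KO replicate 2 gave an adjusted p of 0.0664 or 0.0805.

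The counts by group below stand against 7.41% higher and 6.86% lower of all genes tested. The other lipoxygenase and leukotriene enzymes gave 4 lower and 2 higher of 14. The remaining ones were Cotl1 (-0.52), a binding partner of the leukotriene-forming lipoxygenase, and Alox8 (0.48). The other phospholipases and enzymes of arachidonate supply gave 4 lower and 1 higher of 24, the remaining ones being the lysosomal phospholipase Pla2g15 (-0.39) and Acsl4 (0.54), which activates arachidonic acid. Pla2g15 (adjusted p from 0.114 to 0.204) and Alox8 (0.0741 to 0.195) did not pass with any single array left out. Leaving out KO replicate 1, KO replicate 2 or WT replicate 1 gave Cotl1 an adjusted p of 0.0877, 0.0931 or 0.0835, and Acsl4 one of 0.0696, 0.0869 or 0.0674.

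Of 10 receptors and enzymes of other lipid mediators 5 were higher, among them the lysophospholipid-responsive receptor Gpr132 (1.48), with 1.38 and an adjusted p of 0.0558 when KO replicate 2 was left out. Of 8 other prostanoid enzymes 3 were higher, namely Akr1b8 (1.19), Cbr2 (0.81) and Prxl2b (0.80). In the absence of KO replicate 1 their adjusted p was 0.0736, 0.132 and 0.0633, and in the absence of WT replicate 1 it was 0.0786, 0.0913 and 0.0677. Akr1b8 also failed when WT replicate 2 was left out (0.126). The epoxide hydrolase gene Ephx3 (-0.87) was the lower gene of its group, with an adjusted p of 0.0771 when KO replicate 1 and 0.0985 when WT replicate 1 was left out. Slco3a1 (0.78), the higher one of 6 transport genes, had adjusted p-values of 0.145, 0.0767 and 0.0618 when KO replicate 1, KO replicate 2 or WT replicate 2 was left out. The genes of these groups beyond the 12 with the smallest p were named after their values were seen.

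**Figure D4:**
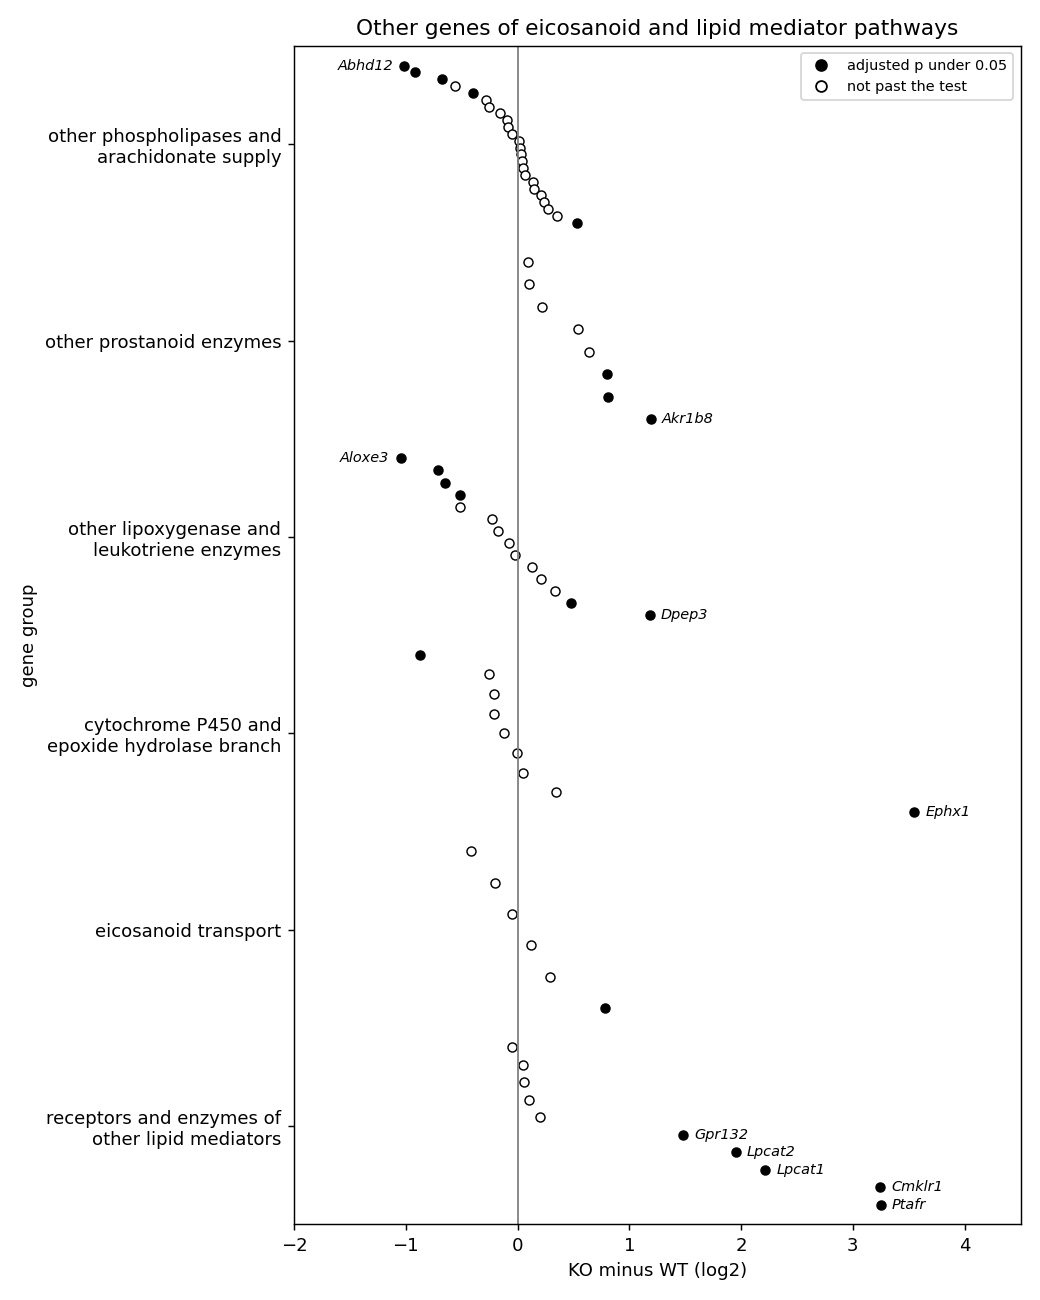
KO minus WT difference on the log2 scale of the 71 other pathway genes, 1 point per gene, by group. Filled points had an adjusted p under 0.05, and those that differed by at least 1 are named. Ephx1, Ptafr, Cmklr1, Lpcat1 and Lpcat2 stand out to the right, and no point lies below -1.05.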

How the data were processed

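The authors deposited log2 values for each probe set. Per the submitters' processing notes they used RMA in R 2.15.2. This method removes background, equalises the arrays and summarises probes, and its settings and genome build are not given in the sources used. The table held 28371 probe sets on 4 arrays, with values from 0.96 to 12.1. All arrays share 1 distribution, so a shift of most transcripts in 1 direction would be invisible, and low values understate fold changes. Of the probe sets, 21158 had 1 gene symbol in the platform annotation, 1881 several and 5332 none listed there. Only the first were used, the brightest per gene, which gave 18782 genes with no filter.

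The comparison used limma 3.58.1 (R 4.3.3) on these log2 values with group as the only term, two-sided, on 2 residual degrees of freedom and 4.16 from the prior. Benjamini-Hochberg adjustment ran over all genes, and 0.05 was the threshold. Differences are KO minus WT with the standard error (SE), and folds are powers of 2. The number of arrays limits precision. Alternatives left out each array, added the replicate number as a block, renormalised or centred the arrays, dropped genes below the array median in both groups, averaged probe sets, used an intensity trend, or tested against a difference of 0.5. Members, lists, motifs and neighbours were chosen with earlier results of these data known, and the C/EBP motif after the Ptgs2 sequence was seen. Beyond the 32 genes, the text names Pparg, the gate genes and up to 6 other pathway genes per direction with the smallest p. Others were picked after their values were seen.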

Additional observations from a re-analysis of the deposited data

How the results depend on the processing

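Of the 12 eicosanoid genes past the test, 5 (Pla2g2d, Pla2g7, Ptgs2, Ptgir and Ltc4s) stayed past it in the same direction under all 11 alternatives, and none of the 12 changed sign. With each array left out in turn, 4 to 8 of the eicosanoid genes were higher and 2 to 4 lower, 7 to 11 of the other pathway genes were higher and 4 to 8 lower, and 724 to 1227 of all genes were higher and 647 to 1057 lower. Those fits hold 1 array in a group, which is assumed to vary like the other. A test against a difference of 0.5 (limma's treat) called 5 higher and 1 lower of the eicosanoid genes, 7 higher and 0 lower of the other pathway genes (4 lower at an unadjusted p under 0.05), and 498 higher and 336 lower of all genes. It asks for a larger difference by construction. Signs changed only in genes not past the test, with each array left out in turn, namely Ptges (-0.15 to 0.22), Ptgis (-0.14 to 0.025) and Ptgfr (-0.16 to 0.0030).

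Renormalising, centring, leaving out dim genes and averaging probe sets left the same 12 eicosanoid genes past the test, and the intensity trend added Tbxas1. The replicate number as a block gave 8 higher and 4 lower eicosanoid genes, the same 12, and 1309 higher and 1168 lower of all genes. The numbers mark no shared animal in the labels, and the within-group differences correlated at -0.02 across genes. Both groups held 2 pools, so p-values rest on the spread between pools, not between mice. In limma that spread is partly shared across genes (2 residual degrees of freedom and 4.16 from the prior). In genes near or below the array median of 3.14 a fall would be compressed.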
